A study of Mus musculus with 3 samples.

Results

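The platelet-derived growth factor (PDGF) genes were examined in single-cell RNA-seq of mouse glioblastoma. The set held the 4 ligand genes Pdgfa, Pdgfb, Pdgfc and Pdgfd and the 2 receptor genes Pdgfra and Pdgfrb, chosen by name, and all 6 were among the 50262 genes of the table. The measured value was the number of unique molecular identifiers (UMIs), that is, of distinct captured transcripts, and levels are given as CPM, the UMIs of a gene for every 1000000 UMIs of a group of cells.

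Tumors arose in adult mice that carried a conditional (Cre/lox) wild-type human EGFR transgene together with germline loss of Cdkn2a and a conditional luciferase reporter, after striatal injection of a Cre lentivirus. Viruses with and without a TGFa gene were made for the study, and which of them was injected here is not given in the sources used here. Cells were sorted into CD45- cells, which hold tumor, neural and vascular cells, and CD45+ leukocytes. There were 3 tumor samples, 1 each of the early, medium and late stage (the label of the last is large), and each gave both sorts, so both sorts of a sample come from the same animals, and all animals shared the alleles, the mixed strain background and an injection of Cre virus. The early sample was pooled from more than 1 mouse. The libraries were spread over 3 sequencing runs, and libraries of the same tumor sample and sort are technical repeats, so a stage has 1 tumor sample and stages are described without a test. After filtering, 2725, 1603 and 2268 CD45- cells and 5091, 3983 and 2094 CD45+ cells remained in the early, medium and late sample, 17764 in all. The sums behind these groups ranged from 5319519 to 10808099 UMIs. Intervals given with a level are exact Poisson 95% intervals, which cover counting error only.

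PDGF ligands are secreted dimers that act on a pair of receptor tyrosine kinases. PDGF-A and PDGF-C act mainly through the alpha receptor, PDGF-D mainly through the beta receptor, and PDGF-B through both. PDGF-A and PDGF-B are cut inside the cell, whereas PDGF-C and PDGF-D are secreted in a latent form and activated outside it by proteases such as those of the plasminogen system. In the brain the alpha receptor is a hallmark of oligodendrocyte progenitors, and PDGF-B made by endothelium holds pericytes, which carry the beta receptor, to the vessel wall.

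Cells were grouped by markers that did not include the 6 genes, and the 6 genes were left out of clustering. Tumor cells were CD45- cells with at least 2 UMIs of the human EGFR transgene (hsEGFR), and the early, medium and late sample had 4, 297 and 858 of them. Progenitors without transgene were 110, 78 and 46 CD45- cells with 0 hsEGFR UMIs in a fine cluster of oligodendrocyte progenitor-like cells. In that cluster 2.50% of CD45- cells had an hsEGFR UMI, all of them in the late sample, where the share was 11.5%. The transgene itself was at 7.28, 706 and 1220 CPM in the CD45- sort of the early, medium and late sample and at 1.85, 271 and 84.4 in the CD45+ sort. All 10 progenitor markers were found in both classes, and their summed level was 18390 to 20367 CPM in progenitors and 4032 to 5763 in tumor cells. Tumor cells were the deeper class, with a median of 6270 UMIs per cell against 2902 in progenitors. Shares after thinning are given below, and a refit on counts thinned to 1000 UMIs per cell was among the alternatives. The part of depth in the results was not tested further. The 4 tumor cells of the early sample entered no test.

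The genes lie apart in the genome (GRCm38). Pdgfra is at chr5:75152292-75198215 on the plus strand and Pdgfa at chr5:138976014-138997370 on the minus strand of the same chromosome. Pdgfb is at chr15:79995874-80014977 (minus), Pdgfc at chr3:81036416-81214040 (plus) and Pdgfd at chr9:6168584-6378850 (plus). Taken over all tumor cells, the alpha receptor and its ligand Pdgfa went in opposite directions against progenitors (below). For that reason the 250 bases before their RefSeq transcription starts (GRCm38.p6) are shown. Capitals mark matches, on either strand, to GGGCGG (a GC box), CCAAT (the letters NF-Y binds), TATAAA (a form of the TATA box), CAGCTG (an E-box) or ACAAAG (a core of the SOX type).
Pdgfra, chr5:75152001-75152250, plus strand: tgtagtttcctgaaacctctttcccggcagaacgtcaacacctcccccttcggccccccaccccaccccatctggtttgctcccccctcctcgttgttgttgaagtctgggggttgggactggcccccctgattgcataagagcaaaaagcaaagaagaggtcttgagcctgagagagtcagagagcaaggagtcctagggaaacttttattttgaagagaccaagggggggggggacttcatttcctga
Pdgfa, first start, chr5:138994945-138995194, minus strand: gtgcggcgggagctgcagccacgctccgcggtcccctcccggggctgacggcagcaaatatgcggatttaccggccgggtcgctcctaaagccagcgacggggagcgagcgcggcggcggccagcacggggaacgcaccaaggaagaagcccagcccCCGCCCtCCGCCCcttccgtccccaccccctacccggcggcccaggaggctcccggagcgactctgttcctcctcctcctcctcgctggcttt
Pdgfa, second start, chr5:138994282-138994531, minus strand: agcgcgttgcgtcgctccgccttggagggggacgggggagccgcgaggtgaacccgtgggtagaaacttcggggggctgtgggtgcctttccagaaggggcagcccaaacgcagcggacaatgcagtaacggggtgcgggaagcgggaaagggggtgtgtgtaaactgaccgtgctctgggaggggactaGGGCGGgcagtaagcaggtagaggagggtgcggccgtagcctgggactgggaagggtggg
The window of Pdgfra held none of the 5 motifs, at a GC content of 54.4%. Both Pdgfa windows held the GC box, at 2 places before the first start and 1 place before the second, at GC contents of 72.4% and 66.4%. The GC box was in 32.7% of 32851 promoter windows of the same length, CCAAT in 33.8%, TATAAA in 12.4%, CAGCTG in 4271 windows and ACAAAG in 16.5%, and the median GC content was 52.4%. RefSeq windows were used for 4 of the 6 genes. None was matched for Pdgfb, and Pdgfrb, whose location is also not listed here, was left out of the search. The windows of Pdgfc and Pdgfd each held ACAAAG, and that of Pdgfd also held TATAAA.

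**Figure D1:**
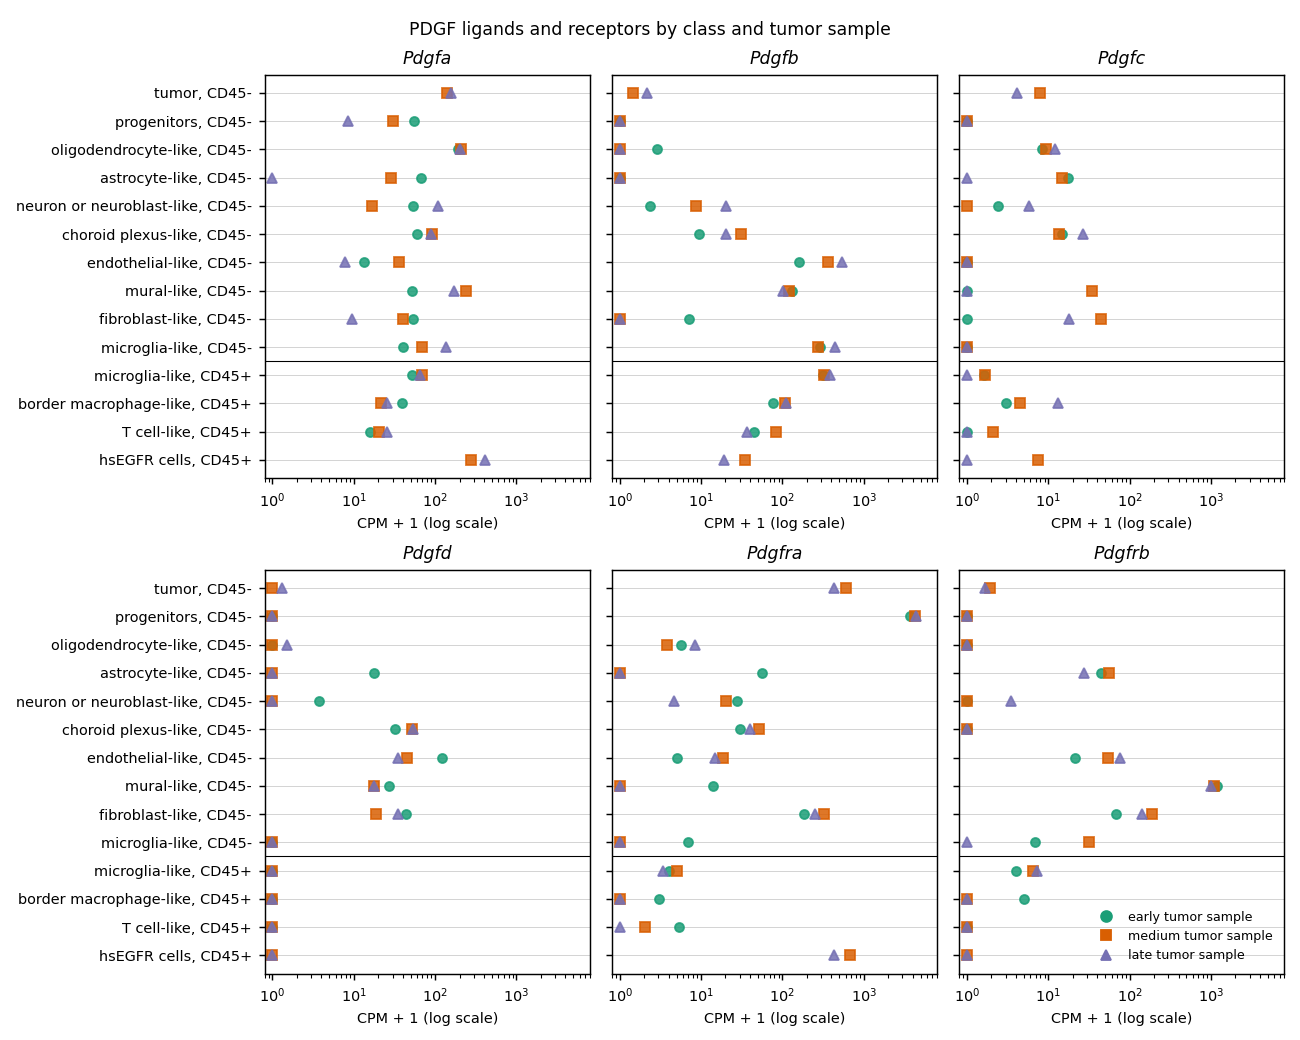
Level of each gene (CPM plus 1, log axis) by class, 1 point per tumor sample with at least 20 cells of the class. Points at the left edge are at 0, and hsEGFR cells of the CD45+ sort are those of the progenitor-like and unnamed tumor clusters. Pdgfra peaked in progenitors (3689 to 4370), Pdgfrb in mural-like cells (997 to 1188), and Pdgfb in endothelial-like and microglia-like cells.

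The first comparison was between the sorts. Pdgfra, the alpha receptor gene, and the ligand genes Pdgfa, Pdgfc and Pdgfd and the beta receptor gene Pdgfrb were higher in the CD45- sort, and Pdgfb was higher in the CD45+ sort. These sums mix all cells of a sort, so that a level in them moves with the share of each cell type. All 6 genes passed the test, against a background of 46% of 18510 genes called.

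Pdgfra was at 201, 422 and 338 CPM in the CD45- sort of the early, medium and late sample and at 16.5, 41.0 and 26.9 in the CD45+ sort. The log2 difference was 3.18 (SE 0.23, edgeR quasi-likelihood test, adjusted p = 0.000135, n = 3 tumor samples). Pdgfb showed the reverse, at 30.0, 25.8 and 13.1 in the CD45- sort and 259, 136 and 213 in the CD45+ sort. The log2 difference was -3.53 (SE 0.34, edgeR, adjusted p = 0.000301). Pdgfb was the member with the higher level in leukocytes, and the classes that held it are given below.

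Pdgfa was at 114, 137 and 149.6 in the CD45- sort and 46.4, 50.3 and 80.8 in the CD45+ sort, a log2 difference of 0.85 (SE 0.20, edgeR, adjusted p = 0.0125). Pdgfrb was at 16.0, 21.95 and 10.4 against 3.61, 3.19 and 5.45, a log2 difference of 1.61 (SE 0.39, edgeR, adjusted p = 0.0131). Without the early sample the calls of both genes were lost, and without the medium sample that of Pdgfa was lost. The 2 ligands that are activated outside the cell were rare: 165 UMIs of Pdgfc were counted in the CD45- sort and 27 in the CD45+ sort, and 173 and 7 of Pdgfd. Both passed the test, with log2 differences of 2.31 (SE 0.37) for Pdgfc and 4.32 (SE 0.70) for Pdgfd (edgeR, adjusted p = 0.00224 and 0.00233).

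**Figure D2:**
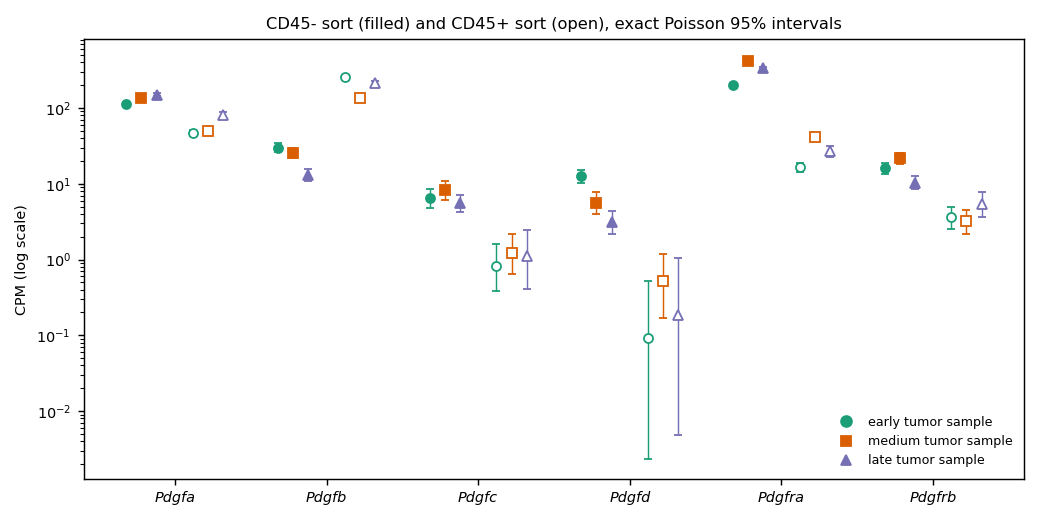
Level of each gene (CPM, log axis) in the CD45- sort (filled) and the CD45+ sort (open) of the 3 tumor samples, with exact Poisson 95% intervals. Pdgfb was the gene with the higher level in the CD45+ sort (136 to 259 against 13.1 to 30.0).

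The second comparison set tumor cells against progenitors without transgene, to ask which receptors and ligands differ between these classes. Pdgfra was lower and Pdgfa higher in tumor cells, and the other members were near or at 0 in both. Of the 5 members tested, 1 was called higher and 1 lower, where 17.7% of 11283 genes were called.

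Pdgfra was at 3689, 4245 and 4370 CPM in the progenitors of the early, medium and late sample, and at 597 and 431 in the tumor cells of the medium and late sample. The log2 difference was -2.84 (SE 0.44, edgeR, adjusted p = 1.86e-05). A Pdgfra UMI was found in 96.2% to 100% of progenitors and in 45.8% to 50.5% of tumor cells. With every cell thinned to 1000 UMIs these shares were 88.2% to 97.8% and 26.7% to 29.0%. T cell-like cells, which should lack the gene, had a Pdgfra UMI in at most 0.313% of cells at a median depth of 1890 UMIs.

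In the medium sample the difference was present within each sequencing run. Its progenitors were at 3726, 4642 and 4030 in runs 1, 2 and 3, and its tumor cells at 332, 754 and 435. In the late sample the tumor cells of the 3 runs were at 393, 470 and 494, and no run had enough progenitors for a value.

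Pdgfa, a ligand of that receptor, was at 139.8 and 158 CPM in the tumor cells of the medium and late sample and at 54.0, 29.3 and 7.48 in the progenitors of the early, medium and late sample. Tumor cells were the higher class in both samples that had them, with a log2 difference of 2.27 (SE 0.60, edgeR, adjusted p = 0.00700). The progenitor values rest on 17, 8 and 1 UMIs. Taken over all progenitor-like cells with 0 hsEGFR UMIs, Pdgfa was at 40.8, 35.0 and 57.5 and Pdgfra at 3322, 3847 and 2326 in the early, medium and late sample, so that no order of the stages is read from the progenitor values. With that wider group the log2 differences were 1.76 for Pdgfa and -2.51 for Pdgfra (edgeR, adjusted p = 0.0207 and 0.000186). Within the medium sample's runs 1, 2 and 3, tumor cells were at 178, 143 and 109 and progenitors at 0, 15.1 and 87.6. A Pdgfa UMI was found in 32.0% to 36.7% of tumor cells and 2.17% to 8.18% of progenitors, and after thinning in 12.1% to 12.97% and 2.17% to 3.64%. With tumor cells taken from the progenitor-like cluster alone, the log2 difference was 0.80 and the call was lost (edgeR, adjusted p = 0.509).

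Of the other members, progenitors had 0 UMIs of Pdgfb, Pdgfc, Pdgfd and Pdgfrb in 234 cells. Tumor cells had 8 UMIs of Pdgfb, 34 of Pdgfc, 2 of Pdgfd and 6 of Pdgfrb in 1159 cells, and Pdgfc did not pass the filter on low counts. The beta receptor was thus at 0.651 to 0.932 CPM in tumor cells, where Pdgfra was at 431 to 597.

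Within the tumor cells the alpha receptor and Pdgfa marked different clusters. This split was made after the values were seen and is given without a test. Of the 1159 tumor cells, 596 lay in the progenitor-like cluster led by Gpr17 and Tnr, 434 in an unnamed cluster led by Thbs2 and Tinagl1 that was nearly all of the late sample, and 106 in an unnamed cluster led by AI506816 and Apobec3 that was nearly all of the medium sample. Pdgfra was at 951 (95% interval 897 to 1007) and 929 (891 to 967) in tumor cells of the progenitor-like cluster of the medium and late sample. In those of the unnamed clusters it was at 69.3 (52.4 to 90.0) and 88.0 (78.6 to 98.3).

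Pdgfa ran the other way. It was at 42.3 (31.6 to 55.5) and 66.7 (57.0 to 77.6) in the progenitor-like cluster and at 297 (261 to 337) and 223 (208 to 239) in the unnamed clusters. The same order held in each run with at least 10 such cells, where Pdgfa was between 37.4 and 76.3 in the progenitor-like cluster and between 213 and 327 in the unnamed clusters. Progenitors without transgene were above both groups in Pdgfra. The finer clustering (resolution 2) did not part the genes in this way in the medium sample. There 254 CD45- cells, 88.6% of them with an hsEGFR UMI, formed a progenitor-like fine cluster with Pdgfra at 538 and Pdgfa at 174. A UMI of Pdgfra was found in 44.5% of these cells and of Pdgfa in 34.3%. In that sample's other progenitor-like fine clusters with the transgene, Pdgfra was at 1308 and 425 and Pdgfa at 53.6 and 39.4.

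The CD45+ sort of the medium and late sample held 143 and 53 cells with at least 2 hsEGFR UMIs, of which 129 and 50 lay in the progenitor-like and unnamed tumor clusters. The others lay in leukocyte and other clusters and are left out here. The 129 and 50 cells showed the same order. Their markers of the progenitor list were at 2877 to 6465 CPM, with all 10 found. In the progenitor-like cluster Pdgfra was at 987 (876 to 1107) and 1156 (924 to 1427) in these samples, and Pdgfa at 51.2 (28.7 to 84.5) and 67.2 (21.8 to 157). In the unnamed clusters Pdgfra was at 149 (97.4 to 218) and 68.7 (32.9 to 126), and Pdgfa at 659 (544 to 791) and 577 (460 to 714). These rest on 20 to 81 cells a value, and the cells were clustered together with those of the CD45- sort, so that they are other cells but not an independent grouping.

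**Figure D3:**
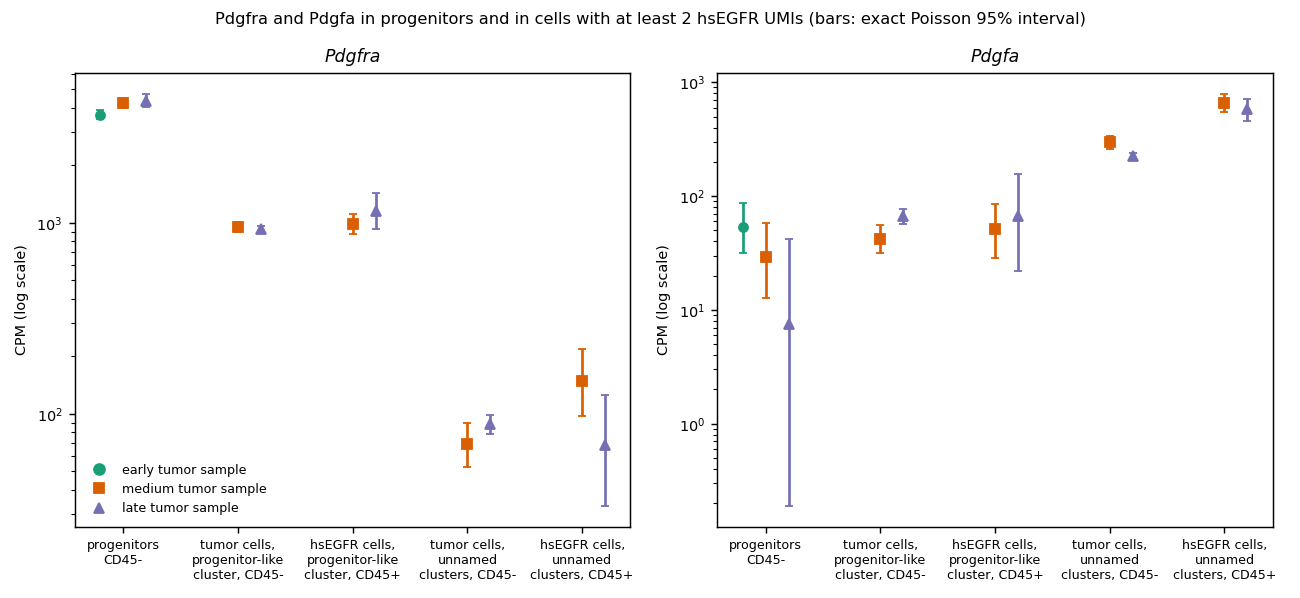
Pdgfra and Pdgfa (CPM, log axis) in progenitors and in cells with at least 2 hsEGFR UMIs, divided by cluster and sort, with exact Poisson 95% intervals. Pdgfra was at 3689 to 4370 in progenitors and at 68.7 to 149 in the unnamed clusters, while Pdgfa was at 223 to 659 in those clusters.

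Pdgfra is also given by the number of hsEGFR UMIs, the count that defines the tumor class, as a description. Within the progenitor-like cluster of the late sample it was at 1031, 843 and 928 in cells with 2 to 4, 5 to 9 and 10 or more hsEGFR UMIs, and at 785 in cells with 1, which belong to neither class. Over the samples, cells with 1 were at 649 (525 to 794) and cells with 2 to 4, 5 to 9 and 10 or more at 952 (848 to 1065), 940.2 and 933. In the medium sample the values for 2 to 4, 5 to 9 and 10 or more were 796, 1019 and 947. These groups also differ in depth, since a deeper cell is more likely to show the transgene.

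After thinning, a Pdgfa UMI was found in 2.35% (95% Clopper-Pearson interval 0.286 to 8.24) of the medium sample's tumor cells with a Pdgfra UMI and in 17.3% (12.4 to 23.1) of those without. In the late sample the shares were 7.05% (4.08 to 11.2) and 13.99% (11.4 to 16.96). Within the progenitor-like cluster of the late sample they were 5.13% and 4.95%, and within the unnamed clusters 19.4% and 19.3%, so that the difference over all tumor cells of that sample was not seen inside either group. In the medium sample they were 2.70% (0.329 to 9.42) and 4.12% (1.13 to 10.2) within the progenitor-like cluster. Within its unnamed clusters 0 of 8 cells with a Pdgfra UMI (upper bound 36.9%) and 28 of 100 cells without (19.5% to 37.9%) had a Pdgfa UMI, and 8 cells are too few to show a difference.

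The classes that held the UMIs of Pdgfra and Pdgfa differed between the 3 tumor samples. In the CD45- sort of the early sample, progenitors held 71.4% of the 1627 Pdgfra UMIs, and in the late sample tumor cells held 74.0% of 3582. Oligodendrocyte-like cells held 75.2% of the 924 Pdgfa UMIs in the early sample and 25.1% of 1584 in the late sample, where tumor cells held 61.2%. Tumor cells were 37.8% of the cells and 58.0% of all UMIs of that sort in the late sample.

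**Figure D4:**
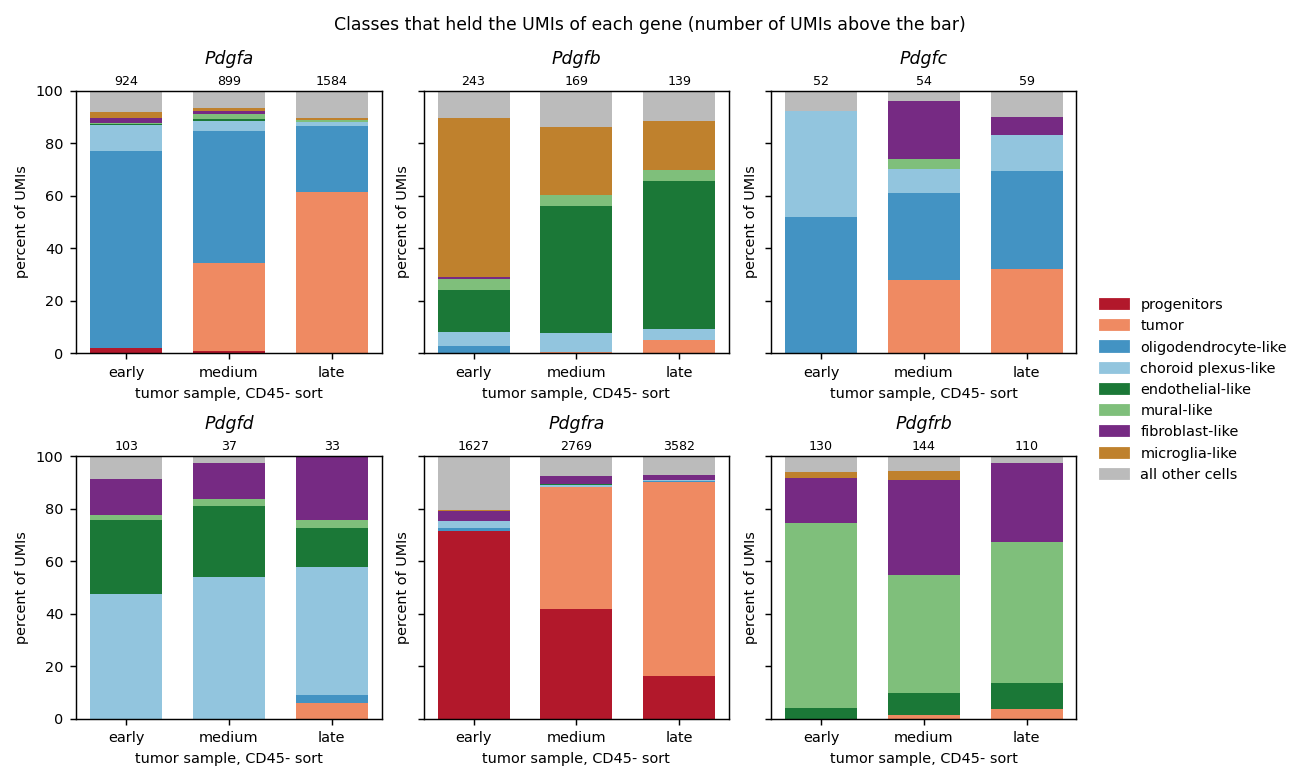
Share of each gene's UMIs held by each class in the CD45- sort of the early, medium and late tumor sample, in percent, with the number of UMIs above each bar. For Pdgfra the early bar is mostly progenitors (71.4%) and the late bar mostly tumor cells (74.0%).

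The third comparison covered the other non-immune classes. Over 9 contrasts between tumor cells, progenitors, endothelial-like, mural-like, fibroblast-like, oligodendrocyte-like and astrocyte-like cells, 45 tests of members gave 10 higher and 15 lower, where 19.9% of all gene tests in those contrasts were called. Over all pairs of CD45- classes, which include the neighbours compared below, 28.5% of gene tests were called.

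Among ligands, Pdgfa had its highest mean, of the CD45- classes, in oligodendrocyte-like cells, the myelin-forming class. There the 3 tumor samples, from early to late, were at 189.5, 209 and 199 CPM. Tumor cells of the unnamed clusters, a part of the tumor class, were above this at 297 and 223 in the medium and late sample. Progenitors were below oligodendrocyte-like cells (log2 difference -3.15, SE 0.55, edgeR, adjusted p = 2.48e-05). Of the 2 oligodendrocyte-like clusters, that led by Klk6 was at 286, 283 and 277 and that led by Opalin at 168, 189 and 183, with no test made between them. Mural-like cells were at 51.7, 237 and 169, and the tests against oligodendrocyte-like and tumor cells did not pass (edgeR, adjusted p = 0.185 and 0.909). Tumor cells were above endothelial-like cells (log2 difference 2.80, SE 0.67, edgeR, adjusted p = 0.00222), which were at 18.2 on average.

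Pdgfb, the ligand that endothelium uses to hold pericytes, was at 160.1 (95% interval 114 to 219), 362 and 534 CPM in endothelial-like cells of the early, medium and late sample. The early sample was the lowest and the late sample the highest. As a mean over cells the values were 162, 404 and 421, with the medium and late sample close. The order of early below medium was also seen within run 2 (128 and 336) and run 3 (196 and 403), and the late sample had enough endothelial-like cells in run 1 alone (576). With 1 tumor sample a stage this order has no test. A Pdgfb UMI was found in 17.6% to 39.4% of endothelial-like cells (11.9% to 27.1% after thinning, median depth 1435 UMIs). In T cell-like cells of the CD45+ sort, taken as a class that should lack the gene, it was found in 5.04% to 10.5% (2.68% to 6.71% after thinning, median depth 1890).

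Mural-like cells were at 129, 119 and 101.4 in Pdgfb, below endothelial-like cells in each sample. The difference did not pass (log2 difference of endothelial-like minus mural-like 1.67, SE 0.60, edgeR, adjusted p = 0.0854). The late value rests on 6 UMIs in 24 cells and was 171 in the 25 cells of the finer clustering. Endothelial markers, 7 in the list, were summed at 1386 to 3083 CPM in mural-like cells and at 10714 to 12293 in endothelial-like cells. Their part in the Pdgfb of mural-like cells was not tested. Tumor cells were below both classes (log2 difference -8.66, SE 0.85 against endothelial-like and -6.99, SE 0.92 against mural-like cells, edgeR, adjusted p = 1.55e-09 and 1.03e-06).

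Pdgfd, the latent ligand of the beta receptor, was at 119 (95% interval 79.7 to 171), 44.2 (21.2 to 81.2) and 34.3 (11.1 to 79.9) in endothelial-like cells of the early, medium and late sample. These values rest on 29, 10 and 5 UMIs, and as a mean over cells the late value was 53.2, above the medium sample's 44.0. Choroid plexus-like cells were at 31.6, 50.3 and 51.9 and held 49.1% of the Pdgfd UMIs of the CD45- sort, fibroblast-like cells were at 42.8, 17.9 and 34.1, and mural-like cells at 25.8, 16.9 and 16.9. No pair of neighbours in this order passed the test (edgeR, adjusted p = 0.876, 0.345 and 0.621). Tumor cells, with 2 UMIs, were below endothelial-like, fibroblast-like and mural-like cells (edgeR, adjusted p = 2.53e-07, 4.05e-06 and 0.00495, the last lost without the early sample).

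Pdgfc, the latent ligand of the alpha receptor, had too few UMIs for a test between classes. Its 165 UMIs in the CD45- sort were spread over oligodendrocyte-like (67), choroid plexus-like (34), tumor (34) and fibroblast-like cells (16). Fibroblast-like cells were at 0, 42.9 and 17.1 and choroid plexus-like cells at 13.5, 12.6 and 26.0 CPM. Endothelial-like cells had 0 UMIs in 361 cells, which allows a share of cells with a UMI of up to 0.831%.

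Among receptors, Pdgfra was above the other classes in fibroblast-like cells, at 183, 325 and 252 CPM, after progenitors and tumor cells. The test between tumor cells and fibroblast-like cells did not pass (log2 difference 0.85, SE 0.41, edgeR, adjusted p = 0.160), whereas fibroblast-like cells were above choroid plexus-like cells, next in the order at 39.4 on average (log2 difference 2.48, SE 0.44, edgeR, adjusted p = 3.90e-05). As a mean over cells the late choroid plexus-like value was 74.9. Endothelial-like and mural-like cells had 7 and 1 UMIs of Pdgfra. Oligodendrocyte-like cells, the mature form of the lineage, were at 2.78 to 7.51.

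Pdgfrb, the beta receptor, was at 1188, 1101 and 997 in mural-like cells of the early, medium and late sample, and 74.2% to 81.6% of these cells had a UMI (59.3% to 72.7% after thinning, median depth 1538). T cell-like cells had 0 UMIs in 857 cells, which allows a share of up to 0.350%. Fibroblast-like cells followed at 67.3, 186 and 141, below mural-like cells (log2 difference of mural-like minus fibroblast-like 2.88, SE 0.38, edgeR, adjusted p = 1.14e-06). Endothelial-like cells were at 20.5, 53.0 and 75.4, below fibroblast-like cells (log2 difference -1.49, SE 0.45, edgeR, adjusted p = 0.0178), a call lost without the early or without the medium sample. The late endothelial-like value rests on 11 UMIs in 71 cells, and it was 42.6 in the 70 cells of the finer clustering and as a mean over cells, below the medium sample's 53.0 in the finer clustering. Astrocyte-like cells were at 41.9 on average, within the spread of endothelial-like cells (log2 difference of astrocyte-like minus endothelial-like -0.03, SE 0.59). Progenitors, oligodendrocyte-like and choroid plexus-like cells had 0 UMIs of Pdgfrb in 234, 2728 and 380 cells.

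**Figure D5:**
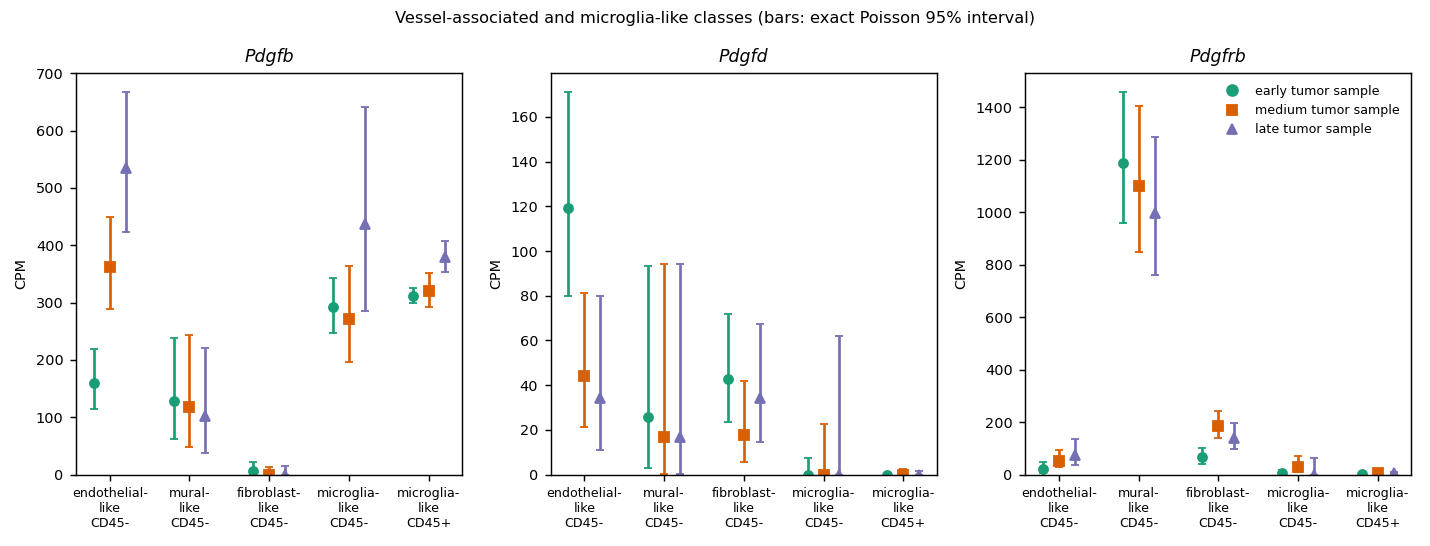
Pdgfb, Pdgfd and Pdgfrb (CPM, linear axes from 0) in vessel-associated and microglia-like classes of the 3 tumor samples, with exact Poisson 95% intervals. Pdgfrb was highest in mural-like cells (997 to 1188), and Pdgfb in endothelial-like cells ran from 160.1 in the early to 534 in the late sample (421 as a mean over cells).

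The fourth comparison was among leukocytes, where Pdgfb was the main member. Microglia-like cells, the resident macrophages of the brain, were at 312, 321 and 380.0 CPM in the CD45+ sort and held 71.2% of its 5259 Pdgfb UMIs, from 50.4% of its cells. The microglia-like cells that passed into the CD45- sort were at 292, 271 and 437. Endothelial markers were summed at 35.9 to 49.8 CPM in the microglia-like cells of the CD45+ sort, against 10714 to 12293 in endothelial-like cells, whose Pdgfb was at 160.1 to 534. The part of transcripts from endothelial or other cells in the Pdgfb of microglia-like cells was not tested. A Pdgfb UMI was found in 25.8% to 31.9% of microglia-like cells (19.1% to 21.8% after thinning).

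Border macrophage-like cells were at 76.2, 107 and 109.6 and T cell-like cells at 43.9, 83.2 and 35.4. Border macrophage-like cells were below microglia-like cells in every sample (log2 difference -1.77, SE 0.56, edgeR, adjusted p = 0.0405), in a contrast where 11.1% of 8817 genes were called. The call did not hold under 6 of the alternatives, among them leaving out the late sample (log2 difference -1.73). Pdgfa, the only other member that passed the filter on low counts among leukocytes, was not called in that contrast. In run 3 of the medium sample, 30 border macrophage-like cells were at 210.5. Neutrophil-like cells were at 181, 29.6 and 199, or at 108, 42.2 and 94.7 as a mean over cells. The unnamed cluster led by Cnbd2 and Cxcl13 was at 285, 198 and 271, and that led by the cell cycle genes Mki67 and Ccnb2 at 309, 270.4 and 124. The unnamed cluster led by Cxcl9 was at 209, 171 and 119, or at 182, 178 and 209.6 as a mean over cells. That led by Spp1 and Arg1 was at 63.8, 149 and 139.7. These unnamed clusters were picked after the values were seen. Tests of each against microglia-like cells and against border macrophage-like cells called 0 members (edgeR). Of 8817 genes, those tests called from 9 higher and 5 lower (Cnbd2-led against microglia-like) to 515 and 334 (Spp1-led against microglia-like). The unnamed clusters led by Ccr2 and Plbd1 and by Elane and Prtn3 were at 29.3 and 135 on average in Pdgfb. In each, Pdgfa and Pdgfb were called lower than in microglia-like cells (1331 and 633 genes higher, 916 and 773 lower). The Pdgfb of border macrophage-like cells was not set apart from that of T cell-like cells (log2 difference 0.79, SE 0.60, edgeR, adjusted p = 0.425). Microglia-like cells were called higher than T cell-like cells in Pdgfa and Pdgfb, where 1267 of 8817 genes were called higher and 1554 lower.

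Pdgfa was at 51.1 to 68.5 in microglia-like cells, at 64.1, 56.9 and 167 in the Cnbd2- and Cxcl13-led cluster, where the late value rests on 8 UMIs, and at 71.4 to 85.2 in the Spp1- and Arg1-led cluster, with T cell-like cells at 14.6 to 24.8. Pdgfd was at 0 UMIs in each named leukocyte class, including 0 in 5634 microglia-like cells, which allows a share of up to 0.0532%. The Pdgfra of the CD45+ sort came mostly from cells that are not leukocyte classes: cells of the progenitor-like and unnamed tumor clusters with at least 2 hsEGFR UMIs held 57.1% of its 720 UMIs. Another 208 UMIs were in 46 cells of the progenitor-like cluster with fewer hsEGFR UMIs.

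Genes of the wider pathway, which were left out of clustering unless they served as class markers, were counted from lists of processing enzymes and binding proteins, receptor-proximal signalling, receptor turnover, other class III receptors, the VEGF branch and immediate-early genes. Between tumor cells and progenitors 4 of 54 tested list genes were higher and 6 lower, where 10.3% and 7.35% of all genes were called, and the median log2 difference was -0.18 against -0.01 over all genes. In the binding list, Sparc, a matrix protein that binds PDGF-B, was higher in tumor cells (1995 against 238 CPM, log2 difference 3.13). By cluster, the tumor cells' Sparc was at 258 in the progenitor-like cluster and 3749 in the unnamed clusters, given without a test. Lrp1, a scavenger and co-receptor, and Cspg4 (NG2), a proteoglycan of progenitors and pericytes, were lower (189 against 960 and 204 against 968, log2 differences -2.22 and -1.99). In the VEGF branch Vegfa was lower (34.6 against 187, log2 difference -2.19), as was Vegfc, which had 2 and 8 UMIs.

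In the other lists the adaptor-bound exchange factor Sos1 and the kinase Src were lower (log2 differences -1.49 and -1.23), and the immediate-early gene Ier3 was higher (123 against 51.5, log2 difference 1.45). Egr3, a further immediate-early gene, and Il34, a ligand of the CSF1 receptor, had 841 and 318 UMIs in tumor cells and 0 in progenitors. Of the 318 Il34 UMIs, 314 were in tumor cells of the unnamed clusters. No gene of the receptor turnover list was called. Adjusted p-values of these 10 genes (edgeR) were between 1.15e-06 and 0.0433.

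Between the sorts 12 of 57 tested list genes were higher in CD45- cells and 23 lower, where 25.7% and 20.3% of all genes were called. Plat, the protease that activates PDGF-C, was higher in the CD45- sort (77.8 against 4.43 CPM, log2 difference 3.83), as were A2m and Pcsk6 (5.09 and 4.45). Plau, the related urokinase, was lower (17.7 against 108, log2 difference -2.96), as were Nrp1 and St14 (-1.82 and -1.79). Csf1r, the class III receptor of microglia and macrophages, was at 203 against 3138 (log2 difference -4.57), and Flt3l and Flt3 were also lower (-2.14 and -1.52), whereas Il34 was higher (2.74). In the VEGF branch the receptor genes Flt4 and Kdr were higher (3.49 and 1.87). Junb, Ier3 and Egr3 led the 7 immediate-early genes that were lower in CD45- cells (-2.45, -2.30 and -2.18), and 0 genes of that list were higher. Among signalling genes Gab1, Fyn and Sos1 were higher (2.19, 1.53 and 1.14) and the adaptors Grb2 and Shc1 lower (-1.38 and -1.09). In the receptor turnover list the phosphatases Ptpn1 and Ptprj and the ubiquitin ligase Cbl were lower (-2.31, -1.51 and -1.08) and Acp1 was higher (0.67). Adjusted p-values of all genes named here were between 0.000135 and 0.0341 (edgeR).

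The genes whose levels ran most like each member were ranked over 63 sums of a class and tumor sample, among 18232 genes, by Pearson's r of log2(CPM + 5). The sums share libraries and differ in depth, so r is a description. Pdgfrb ran with Vtn (r = 0.95), Ndufa4l2 and Enpep, which are known from pericytes, and Pdgfb with F11r (0.89), Slco2b1 and Grap. Pdgfra ran with Eya1 (0.89), Sema3d and Cdo1, Pdgfd with Palmd (0.91), Tgfbr3 and Gstm2, and Pdgfc with Aqp1 (0.66), 2700046G09Rik and Olfml1. Pdgfa had no close neighbour, with Mrfap1, Hsbp1 and Secisbp2l at 0.61 to 0.62. Between members the highest r was 0.56, for Pdgfd and Pdgfrb, and the lowest -0.55, for Pdgfb and Pdgfra.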

How the data were processed

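Single cells of 3 tumor samples were captured by inDrop, in CD45- and CD45+ sorts. The authors deposited UMI counts, not normalized, with genes in rows and cells in columns. The deposited counts also hold the transgenes. According to the study's methods the authors made these counts with RapMap in bcbio-nextgen on the GRCm38 transcriptome (build mm10 per the labels). They separated cells from empty droplets, and removed ambient RNA and doublets. Whether that preceded the deposited counts is not given in the sources used here. The authors' deposited sample annotation (other, text) tied cells to libraries. Of 24 libraries 23 were used, and 17 cell columns that matched no sample's labels were not used.

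Cells with under 500 UMIs, under 500 genes or over 20% mitochondrial UMIs were left out, as were 113 of 17786 cells called doublets by Scrublet (0.635%), leaving 17764 of 20811. Cells were clustered in scanpy 1.11.5 (2000 variable genes, 40 components, resolution 1, 29 clusters) without the 6 members and the transgenes, and named from at least 3 markers. No progenitor-like cluster of resolution 1 had under 5% of CD45- cells with an hsEGFR UMI, so progenitors came from the cluster of resolution 2 that did. Of 18320 barcodes, 2116 occurred in 2 or more libraries, and 1283 kept cells shared a barcode with another library of their run.

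Counts were summed per tumor sample and sort or class (at least 20 cells) and tested with edgeR 4.0.16 (quasi-likelihood, TMM factors, R 4.3.3), with the tumor sample as a block and Benjamini-Hochberg adjustment over all genes tested, at 0.05. The block rests on both sorts coming from the same tumor, and the deviations of the sorts of the early, medium and late sample correlated at 0.38, 0.28 and 0.30. P-values measure only the spread left between sums of these 3 samples once the block is taken out, which may be technical in part. All non-immune classes were fitted together and share the estimate of that spread, and leukocyte classes were fitted apart from them. Tumor cells entered with sums of the medium and late sample only. Shares of cells were also taken after thinning each cell to 1000 UMIs, with shallower cells left out. Intervals are exact (Poisson or Clopper-Pearson), and the limit for a count of 0 is 3 counts.

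Named genes were the 6 members, at most 3 called genes of a pathway list in each direction, and the 3 genes most correlated with each member. The members and lists were chosen with earlier results of these data known. Alternatives were DESeq2 1.42.0, no TMM factors, no block, other filters, other cell choices and leaving out each tumor sample. The scripts were tested on simulated data. An item of the genotype is not reported here.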

Additional observations from a re-analysis of the deposited data

How the results depend on the processing

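Of the values for single genes, 390 alternatives kept the direction and the side of the threshold, 19 lost the call and 0 reversed. Leaving out each tumor sample gave 3 to 5 members higher in the CD45- sort, 9 to 12 higher and 12 to 14 lower over the non-immune contrasts, 0 to 1 lower among leukocytes, and 2 to 5 higher and 3 to 5 lower list genes between tumor cells and progenitors. With tumor cells from progenitor-like clusters only, 0 members were higher in tumor cells. The leukocyte count of 1 lower fell to 0 with DESeq2, without TMM factors, with no replicate block, with at least 10 cells per sum and at clustering resolution 2. Apart from that call, dropping the replicate block left the counts of members called at 5 and 1 between sorts, 1 and 1 for tumor cells and 10 and 15 for non-immune classes.

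For each member the level of its highest class was recomputed. It moved by more than the spread for Pdgfa in CD45+ hsEGFR cells within run 1 (111), Pdgfb in endothelial-like cells within run 1 (576), and Pdgfrb in mural-like cells as a mean over cells (1212) and within run 2 (1300 CPM). Among other levels that moved by over 1.5 times, chosen after their values were seen, were those of the late sample for Pdgfa in progenitors (12.1 as a mean over cells, from 1 UMI), Pdgfb in mural-like (171 at resolution 2), Cxcl9-led (209.6 as a mean over cells), T cell-like (22.4) and neutrophil-like cells (94.7, and 108 in the early sample), Pdgfrb in endothelial-like cells (42.6 at resolution 2), Pdgfd in endothelial-like cells (53.2 as a mean over cells), and Pdgfc in choroid plexus-like and fibroblast-like cells (14.4 and 7.94). Single runs, with fewer cells, moved further levels by as much, such as Pdgfb in early Spp1- and Arg1-led cells (34.8 in run 3). Within run 1, Pdgfa in oligodendrocyte-like cells was at 171, 178 and 187 in the early, medium and late sample. Without TMM factors the median log2 difference of all genes shifted by 0.36 between sorts and by -0.21 for tumor cells against progenitors. Early tumor cells, 4 in number, and the few UMIs of Pdgfc and Pdgfd limit what can be compared, and the cause of these changes was not tested.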
